A study of Komagataella pastoris with 6 samples.

Results

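The genes described here are the aspartic proteases of the methylotrophic yeast Komagataella pastoris (Pichia pastoris): every gene whose product description names an aspartic protease, an aspartyl protease or a yapsin. There are 7 of them among 5030 genes. Messenger RNA was sequenced from 3 cultures of an engineered strain that overexpresses Ilv3 (labelled HTX33_ILV3, here the ILV3 strain) and from 3 cultures of its control strain HTX-33, labelled WT. All 6 cultures grew on a basic salt medium with 0.5% methanol as the inducing carbon source and were collected in exponential growth, and the series calls the cultures of a strain biological replicates. The labels used here do not give the promoter or copy number behind the overexpression, the number of clones, or what HTX-33 itself carries. ILV3, the dihydroxyacid dehydratase gene PAS_chr1-4_0458, averaged 2626 ± 58.2 TPM in the ILV3 strain and 86.5 ± 6.19 TPM in the control (SD, n = 3 libraries each), in the direction its label gives. TPM is a transcript's length-scaled share of 1 library, out of a total of 1000000. The sequencing depth behind these shares is unknown and their counting error cannot be computed. Each library pools a whole culture, so a change in every cell and a change in the share of cells that express a gene cannot be told apart.

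Aspartic proteases cut proteins with a pair of aspartate residues in their active site and work best in acid surroundings. In Saccharomyces cerevisiae the yapsins form a small family of such enzymes that are held at the plasma membrane and in the cell wall by a glycosylphosphatidylinositol (GPI) anchor. They cut after basic residues, release or trim other surface proteins, and are needed for a sound cell wall. In P. pastoris, yapsins are known mainly because they can clip recombinant proteins on the way out of the cell. The vacuolar enzyme of the same fold, proteinase A, starts the maturation of other vacuolar hydrolases in S. cerevisiae.

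Only PAS_chr1-1_0379 is described as a yapsin, and whether the name holds for other members was not tested. By description, 6 of the 7 genes encode GPI-anchored proteins and 1, PAS_chr3_1087, encodes vacuolar proteinase A. Of the 6, 4 carry one and the same description, an aspartic protease tied to the plasma membrane by a GPI anchor (PAS_chr3_0299, PAS_chr3_0303, PAS_chr3_0866 and PAS_chr4_0584). The sources used here do not say how reads matching several of these genes were assigned, and no protein or genome sequence of this annotation was used, so the similarity of the copies was not measured. The members were selected on the wording of their descriptions, but the family as such was chosen by the strain difference of PAS_chr3_0299, one of the largest increases of the whole comparison. The difference of that gene is therefore given without a test. The other 6 genes belong to the family by description alone, though their values were known from earlier work on these data when the family was chosen.

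The members did not move together. PAS_chr3_0299 was far higher in the ILV3 strain, 3 genes, the most abundant member among them, were lower there, and 3 were slightly higher. With limma across all genes, 3 of the other 6 members were called higher and 3 lower at an adjusted p under 0.05, where 22.1% of the 5025 tested genes were called higher and 27.2% lower. All 7 members passed the filter, which asked for an average of 1 TPM or more. The libraries of the strains were fully separated for each of the 7 genes. Beside PAS_chr3_0299, 3 members lay above the control in every ILV3 library and 3 below, where 26.8% of tested genes lay wholly above and 30.5% wholly below. Since 57.2% of tested genes were separated in one direction or the other, the separation in itself does not set the family apart. The median log2 fold change was 0.18 over the 7 members but -0.36 over the 6 without PAS_chr3_0299, and -0.02 over all tested genes. The sign of the family median thus rests on a near-even split of higher and lower members. The gene chosen for its difference counts in it as 1 of the higher ones, whatever the size of its change. Fold changes divide the ILV3 strain by the control, were computed on log2(TPM + 1) values, and come with the standard error (SE) of the fit; the added 1 makes them too small for weakly expressed genes.

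**Figure D1:**
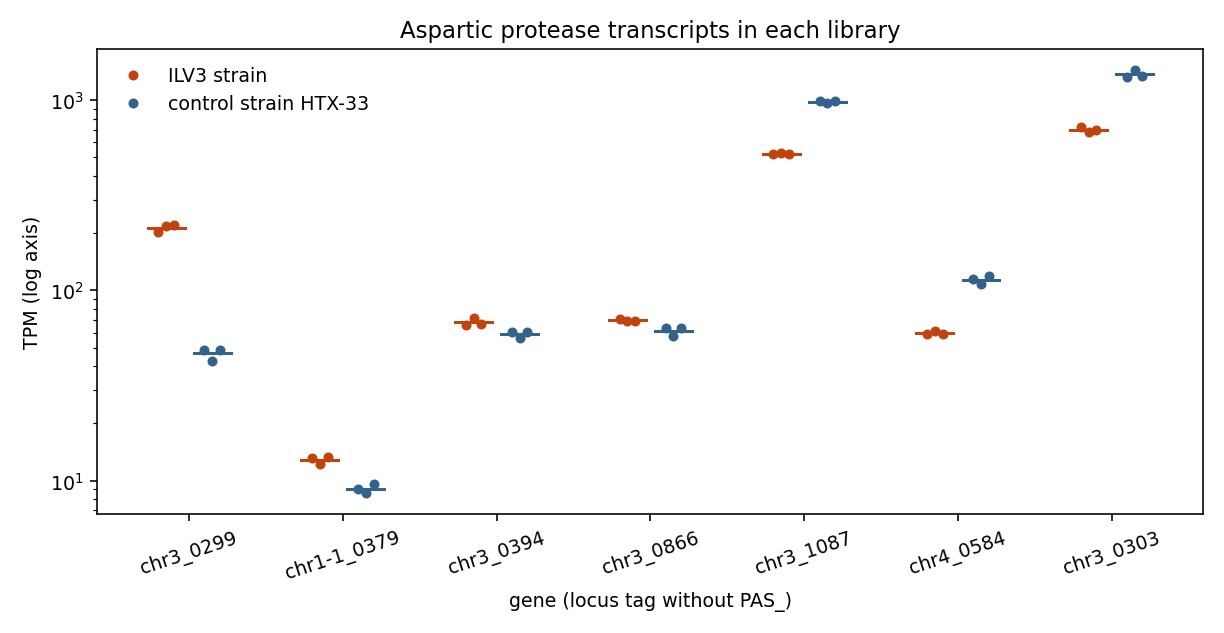
Abundance of the 7 aspartic protease genes in TPM (log axis), with 1 point per library and a line at the mean of 3 libraries; the ILV3 strain stands left of the control for each gene. PAS_chr3_0299 lies above 203 TPM in every ILV3 library and below 49 TPM in every control library, while PAS_chr3_0303, PAS_chr3_1087 and PAS_chr4_0584 lie lower in every ILV3 library.

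Among the surface proteases, PAS_chr3_0299 stood at 203.07, 217.97 and 219.64 TPM in the ILV3 libraries, against 48.76, 42.42 and 48.94 TPM in the control libraries. The lowest ILV3 library lay far above the highest control library, and the spread within either strain was small beside that gap. The ratio of means was 4.57, and 6 of the 5025 tested genes had a higher log2 fold change. In rank, the gene was number 710 of 5030 by mean abundance in the ILV3 strain and number 2626 in the control. It lay above 85.9% of genes in the ILV3 strain and above 47.8% of genes in the control. These values chose the gene and are a description.

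PAS_chr3_0303, which shares its description with PAS_chr3_0299, was the most abundant member in both strains. It was measured at 719.43, 675.95 and 693.33 TPM in the ILV3 libraries, against 1325.18, 1434.18 and 1340.36 TPM in the control libraries. All ILV3 libraries lay well below the lowest control library. Its mean fell to 696 ± 21.9 TPM in the ILV3 strain, against 1367 ± 59.0 TPM in the control (log2 fold change -0.97, SE 0.05, limma adjusted p = 4.32e-07). It remained an abundant transcript, number 270 by rank in the ILV3 strain and number 143 in the control.

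PAS_chr4_0584, another surface protease with that description, lay at 59.36, 60.89 and 59.07 TPM in the ILV3 libraries, against 114.42, 108.24 and 118.90 TPM in the control libraries. The ILV3 libraries lie close together, and none reaches the control range. The gene fell by 0.92 on the log2 scale (SE 0.05, limma adjusted p = 9.76e-07), close to the change of PAS_chr3_0303 although its abundance is much lower.

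The other surface members were higher in the ILV3 strain by small amounts. PAS_chr1-1_0379, described as a yapsin that takes part in protein processing, was the least abundant member, at 13.16, 12.30 and 13.34 TPM in the ILV3 libraries, against 9.03, 8.65 and 9.58 TPM in the control libraries. It rose 1.42-fold by means (log2 fold change 0.47, SE 0.08, limma adjusted p = 0.00161); at this abundance the pseudocount matters, and the log2 fold change was 0.50 with a pseudocount of 0.1 and 0.35 with one of 5. PAS_chr3_0394, a putative GPI-anchored aspartic protease, lay at 65.92, 71.51 and 66.57 TPM in the ILV3 libraries, against 60.44, 56.58 and 60.22 TPM in the control libraries. Its ILV3 values begin only a few TPM above the highest control value.

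PAS_chr3_0394 rose by a log2 fold change of 0.20 (SE 0.05, limma adjusted p = 0.0130), and without ILV3 replicate 2, its highest library, the adjusted p was 0.0551 (0.00110 to 0.0551 over its alternatives). PAS_chr3_0866, the last of the 4 genes with the shared description, lay at 71.06, 69.11 and 69.12 TPM in the ILV3 libraries, against 63.75, 57.68 and 63.22 TPM in the control libraries. It rose by 0.18 on the log2 scale (SE 0.05, limma adjusted p = 0.0209), and without ILV3 replicate 1 the adjusted p was 0.0708 (0.000817 to 0.0708 over its alternatives). Both rises are close to 0.19, the median absolute log2 fold change of all tested genes.

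**Figure D2:**
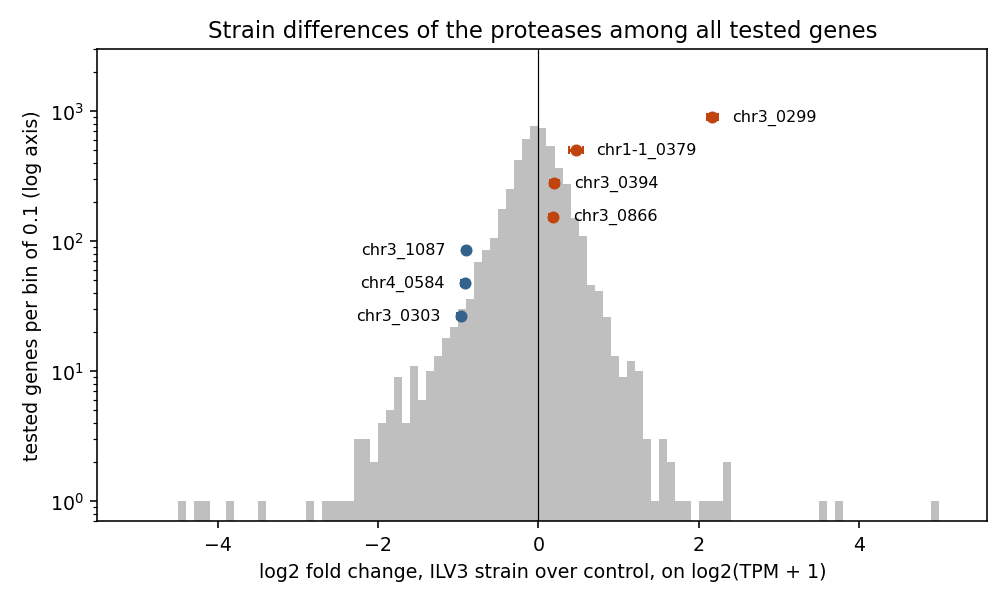
Log2 fold change of each member (points, with bars of 1 SE; their height has no meaning) over the distribution of all 5025 tested genes (grey, genes per bin on a log axis). PAS_chr3_0299 sits at 2.17 in the sparse right tail, 3 members sit between -0.97 and -0.90, and 3 sit between 0.18 and 0.47 inside the bulk.

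Proteinase A, PAS_chr3_1087, is the vacuolar member and was the second most abundant. It stood at 519.98, 528.86 and 521.28 TPM in the ILV3 libraries, against 986.28, 963.52 and 991.29 TPM in the control libraries. The libraries of a strain agreed more closely for this gene than for any other member, with a coefficient of variation of 0.916% in the ILV3 strain and 1.51% in the control, while the other members ranged up to 7.95%. Its mean fell to 523 ± 4.80 TPM in the ILV3 strain, against 980.4 ± 14.8 TPM in the control (log2 fold change -0.90, SE 0.04, limma adjusted p = 1.63e-07). The log2 fold changes of PAS_chr3_0303, PAS_chr4_0584 and PAS_chr3_1087 lie within 0.07 of each other. Of the tested genes, 125 had a lower log2 fold change than PAS_chr3_0303 and 147 a lower one than PAS_chr3_1087.

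The family as a whole was less abundant in the ILV3 strain, and its make-up differed. The 7 genes together summed to 1644 ± 7.78 TPM in the ILV3 strain and 2637 ± 32.0 TPM in the control, 0.623 times as much (0.634 with median-ratio scaling and 0.746 without PAS_chr3_0303, both chosen after the data were seen). The 6 GPI-anchored members alone summed to 1120.3 ± 12.2 TPM in the ILV3 strain and 1657 ± 45.2 TPM in the control. Without PAS_chr3_0303, the other 5 GPI-anchored members summed to 424 ± 10.1 TPM in the ILV3 strain and 290.3 ± 14.6 TPM in the control. That is 1.46 times as much in the ILV3 strain, but this sum includes PAS_chr3_0299, the gene chosen for its difference. With PAS_chr3_0299 left out as well, the remaining 4 summed to 210.5 ± 2.98 TPM in the ILV3 strain and 244 ± 11.0 TPM in the control. The ratio was then 0.864, lower in the ILV3 strain as for the sum of all 6. Within the sum of all 6 PAS_chr3_0299 made up 17.9%, 19.7% and 19.6% in the ILV3 libraries, against 3.01%, 2.48% and 2.98% in the control libraries. PAS_chr3_0303 made up 63.6%, 61.0% and 61.9% in the ILV3 libraries, against 81.7%, 84.0% and 81.7% in the control libraries. PAS_chr3_0303 thus stayed the leading surface protease transcript in every library, with 3.54, 3.10 and 3.16 times the TPM of PAS_chr3_0299 in the ILV3 libraries and 27.2, 33.8 and 27.4 times in the control libraries. A ratio of transcripts within a library does not depend on a scaling by 1 factor per library. Quantile normalization is not of that kind. With it, the log2 fold changes of PAS_chr3_0299 and PAS_chr3_0303 were 2.245 and -1.015, against 2.171 and -0.971 as reported. These sums and shares include the gene that was chosen for its difference and are given with no test.

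**Figure D3:**
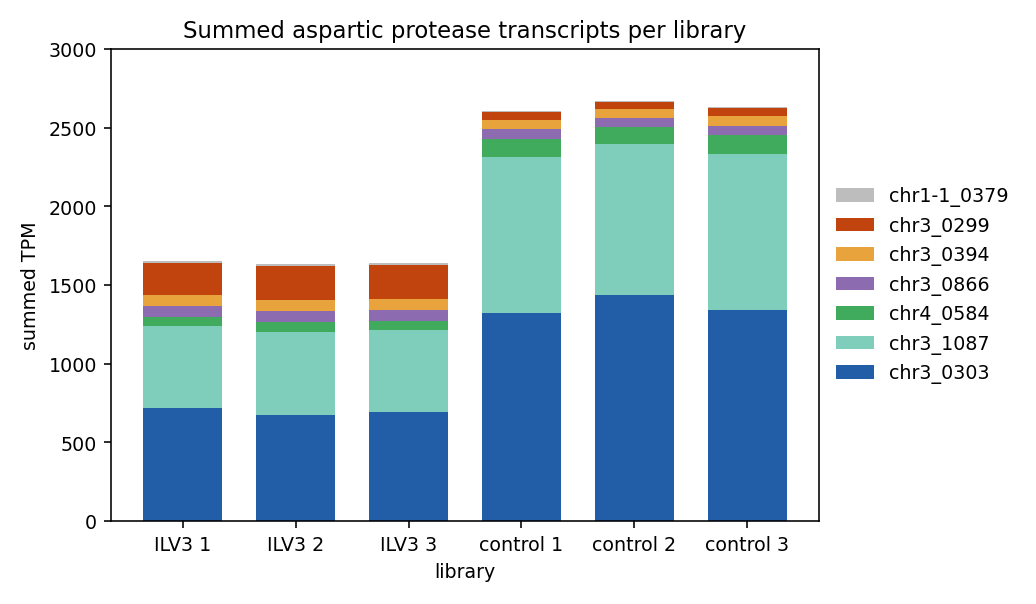
Summed TPM of the 7 genes per library, stacked by gene, with the 3 ILV3 libraries left of the 3 control libraries. The ILV3 stacks reach 1637 to 1652 TPM and the control stacks 2608 to 2671 TPM; PAS_chr3_0303 and PAS_chr3_1087 shrink in the ILV3 strain while the band of PAS_chr3_0299 widens.

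Control replicate 2 held the lowest of the 3 control values for 6 of the 7 members and the highest for PAS_chr3_0303. It also held the lowest control value for 66.3% of all tested genes. Without it, PAS_chr3_0299 had a log2 fold change of 2.10 and PAS_chr3_0303 one of -0.94, and the 6 other members kept their calls and directions.

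Of the 5 transcripts whose profile over the 6 libraries was most like that of PAS_chr3_0299, 3 had no product name. Such transcripts are common, since 2833 of all 5030 genes carry a product name. Likeness was measured as the root mean square distance between log2 profiles, each centred on its own mean, among 4772 genes averaging 10 TPM or more. The nearest were PAS_chr3_1225 at a distance of 0.08, PAS_chr4_0360 at 0.08 and PAS_chr4_0151 at 0.09, all described as hypothetical or uncharacterized. PAS_chr4_0360 was the most abundant of them, with 827 ± 37.3 TPM in the ILV3 strain and 205 ± 9.91 TPM in the control. The next were PAS_chr2-2_0180, which encodes 1 subunit of the TRAPP complex of vesicle transport at the Golgi, and PAS_chr2-1_0489, a myo-inositol transporter gene, both at a distance of 0.29, with smaller strain differences than the protease. No other aspartic protease was among these 5 genes, nor could one be expected. PAS_chr3_0299 was chosen for its difference, and the next highest member had a log2 fold change of 0.47. With 2 groups of 3 libraries, this distance mainly ranks genes by how close their strain difference is to that of PAS_chr3_0299.

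PAS_chr3_0299 and PAS_chr3_0303, the members with opposite changes, have locus tag numbers that lie close together. The 3 genes with tags between them were chosen after their values were seen. Of these, 1 was called higher, where 22.1% of all tested genes were called higher and 27.2% lower. All 3 lay above the control in every ILV3 library, as did 26.8% of tested genes. The margin was narrow for PAS_chr3_0300, at 137.04 TPM against 136.50 TPM. PAS_chr3_0300, a subunit of the cytosolic chaperonin, averaged 140.4 ± 3.92 TPM in the ILV3 strain and 130.3 ± 7.13 TPM in the control (limma adjusted p = 0.116). PAS_chr3_0301, a component of the GARP complex of retrograde transport, averaged 25.0 ± 0.742 TPM in the ILV3 strain and 22.3 ± 1.53 TPM in the control (limma adjusted p = 0.0916). PAS_chr3_0302, described as a mitochondrial cell death effector, rose to 29.7 ± 1.90 TPM in the ILV3 strain, against 20.0 ± 1.96 TPM in the control (log2 fold change 0.55, limma adjusted p = 0.000565). None of them had a difference of the size seen in PAS_chr3_0299, but that gene was chosen for its difference. Only 6 of the 5025 tested genes had a higher log2 fold change.

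Proteinase A acts with other proteases of the vacuole and the secretory route, and 16 genes outside the family were matched to such proteases by the wording of their descriptions. The match is loose: it also took in an inhibitor, a mitochondrial serine protease (PAS_chr4_0714, among those that rose) and a serine protease of the plasma membrane amino acid sensor (PAS_chr2-1_0707, among those that fell). Of the 16 genes, 6 rose, 7 fell and 3 did not pass the test, and their median log2 fold change was -0.05. Over all 5025 tested genes, 22.1% were called higher and 27.2% lower. Carboxypeptidase Y (PAS_chr1-4_0013), whose precursor proteinase A helps to process in S. cerevisiae, fell to 172 ± 2.29 TPM in the ILV3 strain, against 321 ± 20.2 TPM in the control (log2 fold change -0.89, limma adjusted p = 1.51e-06). The gene of an inhibitor of that enzyme (PAS_chr3_0640) fell to 282 ± 7.58 TPM in the ILV3 strain, against 595 ± 24.4 TPM in the control (log2 fold change -1.07, limma adjusted p = 2.03e-07). The protease and its inhibitor thus both fell along with proteinase A. Vacuolar proteinase B, a serine protease, has a pair of genes by description. PAS_chr1-1_0226 fell to 561 ± 17.2 TPM in the ILV3 strain, against 822 ± 26.4 TPM in the control. The less abundant PAS_chr1-4_0548, named after its value was seen, rose to 197 ± 6.42 TPM in the ILV3 strain, against 150.0 ± 8.80 TPM in the control (log2 fold changes -0.55 and 0.39, limma adjusted p = 1e-05 and 0.000319).

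Yapsins act at the cell wall. Of 20 matched genes for glucan, chitin and cell wall proteins, 15 fell, 1 rose and 4 did not pass the test. Their median log2 fold change was -0.34. Among all tested genes, 27.2% were called lower and 22.1% higher. The major exo-1,3-beta-glucanase (PAS_chr2-1_0454), which trims wall glucan, fell to 65.7 ± 1.71 TPM in the ILV3 strain, against 166 ± 9.00 TPM in the control (log2 fold change -1.32, limma adjusted p = 1.46e-07). A putative chitin transglycosidase of the wall (PAS_chr4_0559) fell to 174 ± 7.34 TPM in the ILV3 strain, against 342 ± 30.7 TPM in the control. A beta-1,3-glucanosyltransferase (PAS_chr1-3_0226), which lengthens wall glucan, fell to 82.6 ± 3.31 TPM in the ILV3 strain, against 154 ± 18.4 TPM in the control. PAS_chr3_0303 and PAS_chr4_0584 thus changed in the direction of most genes of this list. PAS_chr3_0299 and the other surface members did not: PAS_chr1-1_0379, PAS_chr3_0394 and PAS_chr3_0866 rose, with log2 fold changes of 0.47, 0.20 and 0.18.

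GPI anchors are built in the endoplasmic reticulum and attached there to proteins bound for the surface. Of 17 genes matched for GPI anchor synthesis or as other GPI-anchored proteins, 1 rose, 4 fell and 12 did not pass the test. Their median log2 fold change was -0.03. The shares over all tested genes were 22.1% called higher and 27.2% lower. The largest change was in an essential GPI-anchored putative mannosidase (PAS_chr1-1_0147), at 85.0 ± 3.19 TPM in the ILV3 strain and 128 ± 4.28 TPM in the control (log2 fold change -0.59, limma adjusted p = 1.49e-05). PAS_chr2-2_0076, of anchor synthesis, fell to 14.6 ± 0.771 TPM in the ILV3 strain, against 22.1 ± 1.48 TPM in the control. A GPI-anchored cell wall protein of unknown function (PAS_chr2-2_0271) fell to 128 ± 7.68 TPM in the ILV3 strain, against 154 ± 15.1 TPM in the control.

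In S. cerevisiae, wall stress is passed on by a kinase cascade under protein kinase C and the GTPase Rho1. Of 9 genes matched for this signalling, 2 rose, 4 fell and 3 did not pass the test, where 22.1% of all tested genes were called higher and 27.2% lower. The median log2 fold change of the 9 genes was -0.17. Without control replicate 1, or without control replicate 3, 2 were called lower in place of 4. Over all tested genes, these fits called 1130 and 1120 lower in place of 1365. Without ILV3 replicate 2, 1 was called higher in place of 2, and 943 of all tested genes in place of 1113. The match is loose, because it also took in the catalytic subunit genes of cAMP-dependent protein kinase and a partner of the kinase Cbk1. A sensor of the pathway (PAS_chr3_0673) fell to 48.3 ± 2.69 TPM in the ILV3 strain, against 75.3 ± 4.70 TPM in the control (log2 fold change -0.63, limma adjusted p = 5.17e-05). A pair of genes described as GTPase activating proteins for Rho1 changed in opposite directions. PAS_chr2-1_0117 fell to 41.2 ± 3.78 TPM in the ILV3 strain, against 68.5 ± 3.63 TPM in the control, and PAS_chr2-1_0118 rose to 28.7 ± 2.10 TPM, against 23.6 ± 1.19 TPM in the control (limma adjusted p = 4.85e-05 and 0.0125). Whether any of these lists differs from the other genes was not tested.

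**Figure D4:**
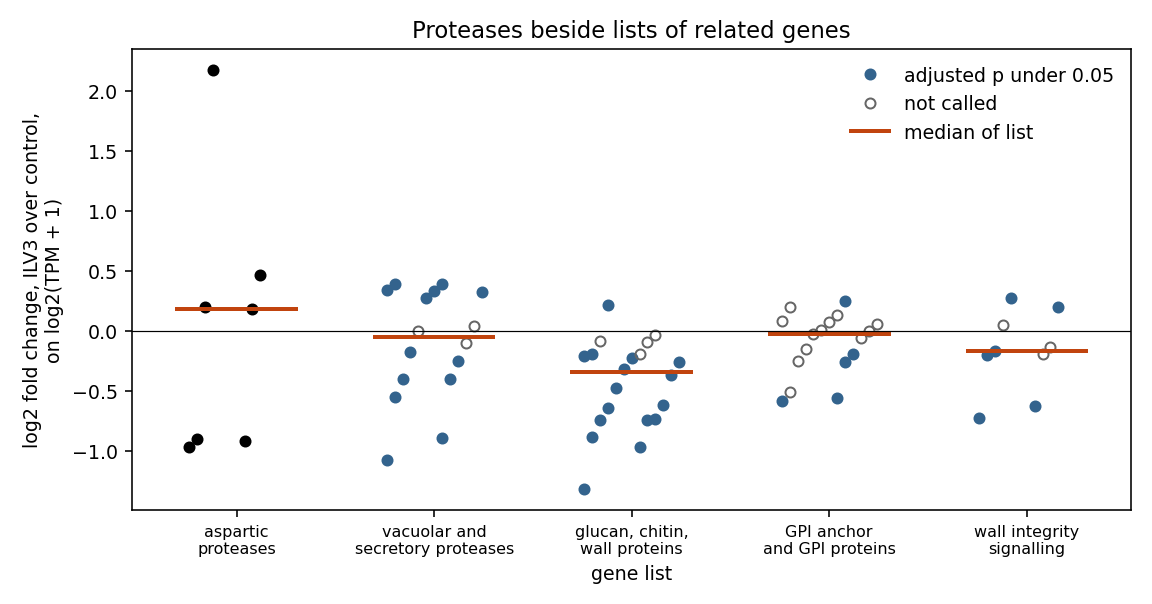
Log2 fold changes of the aspartic proteases (black) and of the genes in 4 related lists, with filled points for an adjusted p under 0.05, open points for genes not called and a line at each list's median. The median is 0.18 for the 7 proteases (-0.36 without PAS_chr3_0299) and -0.34 for genes of glucan, chitin and wall proteins. The highest black point is PAS_chr3_0299, which was chosen for its difference.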

How the data were processed

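Values for 5030 genes in 6 libraries, 3 per strain, were deposited by the authors under the name FPKM. Each library sums to 1000000, so they were treated as deposited TPM. Per the submitters' processing notes HISAT2, TopHat2 and DESeq2 were used; the sources used here give neither their versions nor the genome build and annotation. The libraries were made with a stranded mRNA ligation kit, per the labels. The authors' deposited table also holds a log2 fold change and a p-value per gene; in the authors' deposited table the log2 fold change is 2.21 for PAS_chr3_0299 and -0.96 for PAS_chr3_0303, and the p-values were not used. Of 5030 IDs, 0 matched the RefSeq gene table provided, so genes carry their locus tags, and no coordinates or sequences are printed.

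Genes averaging 1 TPM or more were kept (5025 of 5030). For log2(TPM + 1), limma 3.58.1 (R 4.3.3) was run with its trended prior variance. Two-sided p-values were adjusted by Benjamini-Hochberg across the 5025 genes, with 0.05 as the limit for a call. The procedure was tested on simulated data. The members, lists and tests were chosen with earlier results of these data known. Named genes were all members, the 3 called genes with the largest change in each list, the 5 genes nearest in profile to PAS_chr3_0299, and ILV3. Lists were text matches to the product descriptions, and family members were left out of them. Same-numbered libraries of the strains deviated together (r = 0.223, 0.126 and 0.209 across genes, each over 0.1), so the numbers were taken to pair the samples, although the labels do not say what they share. The reported fit did not use this pairing. A blocked fit, with the replicate number as a factor, was run as an alternative, beside other pseudocounts, filters, scalings, variance settings and each library left out in turn.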

Additional observations from a re-analysis of the deposited data

How the results depend on the processing

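Over 15 alternatives, chosen with earlier results of these data known, the 3 members that fell kept their calls, with log2 fold changes of -1.01 to -0.94 for PAS_chr3_0303, -0.95 to -0.84 for PAS_chr4_0584 and -0.93 to -0.88 for PAS_chr3_1087. PAS_chr3_0299 ranged from 2.08 to 2.24 with no test, and PAS_chr1-1_0379 kept its call. Of the other 6 members, 2 or 3 were called higher and 3 lower when any 1 library was left out. The calls of PAS_chr3_0394 and PAS_chr3_0866 were each lost without 1 ILV3 library, the one in which the gene was highest. Both calls were kept when any other library was left out, narrowly for PAS_chr3_0866. Its limma adjusted p was 0.0483 without ILV3 replicate 2 and 0.0490 without ILV3 replicate 3. Whether the lost calls follow from the library left out or from the smaller number of samples was not tested. With the replicate number as a block (2211 genes called in place of 2478) the call of no member was changed, and PAS_chr3_0394 and PAS_chr3_0866 then had adjusted p = 0.0412 and 0.0479.

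For the lists, alternatives added after the data were seen gave 2 GPI genes called higher in place of 1 with median-ratio scaling and with quantile normalization. Under both scalings, 3 GPI genes were called lower in place of 4. Over all tested genes, these scalings called 1313 and 1499 higher in place of 1113. They called 1367 and 1274 lower in place of 1365. When any 1 library was left out, 1 to 2 signalling genes were called higher and 2 to 6 lower (4 as reported), 12 to 16 cell wall genes lower (15 as reported), 3 to 5 GPI genes lower (4 as reported) and 7 to 8 vacuolar and secretory genes lower (7 as reported). Those same fits called 1120 to 1629 of all tested genes lower (1365 as reported) and 937 to 1060 higher (1113 as reported). Each list had its highest count called lower without control replicate 2, the fit with 1629 genes called lower. With the replicate number as a block, 14 cell wall genes and 3 signalling genes were called lower, and the other list counts were as reported. The blocked fit called 1228 of all tested genes lower and 983 higher. The ratio of the GPI-anchored total, 0.676 as reported, turned to 1.46 without PAS_chr3_0303. It was 0.563 without PAS_chr3_0299 and 0.864 without both genes. The ratio of the family total was 0.634 with median-ratio scaling and 0.746 without PAS_chr3_0303, against 0.623 as reported. It was 0.620 to 0.627 when any 1 library was left out. Median-ratio scaling divides all genes of a library by 1 factor. With it, the median log2 fold change of all tested genes was 0.00383 in place of -0.0196. TPM values keep no depth, so the counting error of the weakest member, PAS_chr1-1_0379, cannot be given.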
